A study of Homo sapiens with 12 samples.

Results

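The 5 metallothionein genes MT1E, MT1F, MT1G, MT1X and MT2A were followed through RNA-seq libraries of MDA-MB-231 cells, a triple-negative breast cancer line of basal type. They were taken by gene symbol from a table of 58051 genes, of which 34866 had at least 1 read in the 12 libraries. Each of the 5 symbols occurred once. All groups were transfected with siRNA pools, and each group had 3 libraries. siControl received a non-targeting pool, siNELFA a pool against NELFA, siYAP a pool against YAP1, and siNELFA+siYAP both targeting pools. NELFA is a subunit of the complex that holds RNA polymerase II at the promoter-proximal pause, and YAP1 is the transcriptional coactivator controlled by the Hippo pathway. The labels give siRNA at 50 to 100 nM and harvest at 48 h and 72 h, without saying which library had which time, and the methods give 72 h for these libraries. The cells were a single established line on serum-containing medium with no metal treatment stated.

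Metallothioneins are small cytosolic proteins whose many cysteines hold zinc, copper and, on exposure, cadmium. Cells with more free zinc make more of them, through the zinc-sensing transcription factor MTF1, which binds short metal response elements in their promoters. Glucocorticoids and oxidative stress also raise several members, and MT2A is usually the most abundant form in human epithelial cells.

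The 5 genes lie on chromosome 16 in 1 run of 75613 bases (GRCh38, GENCODE 44). MT2A spans chr16:56608584-56609497, MT1E chr16:56625475-56627112, MT1F chr16:56657731-56660698, MT1G chr16:56666730-56668065 and MT1X chr16:56682470-56684196. MT1G is on the minus strand and the other 4 are on the plus strand. The whole cluster of 15 metallothionein genes and pseudogenes covers 119124 bases. The coding sequences of the 4 members with more than a few reads are printed to show how alike the transcripts are, with the cysteine codons (TGC or TGT) in capitals.
MT2A: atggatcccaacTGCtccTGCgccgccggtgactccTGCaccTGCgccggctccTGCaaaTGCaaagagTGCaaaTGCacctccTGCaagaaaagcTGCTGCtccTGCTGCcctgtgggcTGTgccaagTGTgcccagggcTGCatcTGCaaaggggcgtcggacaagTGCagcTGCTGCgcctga
MT1E: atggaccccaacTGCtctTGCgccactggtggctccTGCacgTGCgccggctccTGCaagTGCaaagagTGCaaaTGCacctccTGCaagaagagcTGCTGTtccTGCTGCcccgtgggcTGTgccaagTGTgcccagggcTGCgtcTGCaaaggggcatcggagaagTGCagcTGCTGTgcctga
MT1X: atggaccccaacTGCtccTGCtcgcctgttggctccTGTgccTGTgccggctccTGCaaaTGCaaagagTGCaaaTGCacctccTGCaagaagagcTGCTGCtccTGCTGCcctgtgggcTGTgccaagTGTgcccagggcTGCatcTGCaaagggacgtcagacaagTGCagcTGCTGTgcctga
MT1F: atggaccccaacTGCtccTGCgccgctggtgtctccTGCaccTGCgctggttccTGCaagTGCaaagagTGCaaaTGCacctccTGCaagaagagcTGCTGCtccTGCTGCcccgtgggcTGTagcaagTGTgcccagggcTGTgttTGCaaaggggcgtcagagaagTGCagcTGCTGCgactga
Each of these reading frames has 61 codons before the stop, of which 20 encode cysteine. MT1G has 62 codons and also 20 for cysteine. Base identity between any pair of the 5 coding sequences was 88.7% (MT1F and MT1X) to 93.7% (MT1G and MT2A). For MT1E the frame came from a transcript other than the one GENCODE marks as canonical.

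Near-identical copies can exchange reads. In the canonical transcripts of MT1E, MT1F, MT1G and MT2A no stretch of 100 bases was shared with a transcript of another gene, while of stretches of 50 bases 6.1% (MT1F) to 19.9% (MT1G) were shared. MT1X was the exception. It lies wholly inside RP11-343H19.2, a longer gene annotated on the same strand (chr16:56682470-56687807), and 22.0% of its 100-base stretches were shared with that gene. Reads in the overlap cannot be told apart by strand, so MT1X levels and changes are uncertain by the share of reads given to or withheld for this overlap. RP11-343H19.2 itself had between 143 and 1211 reads in the 12 libraries.

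Promoters from RefSeq (GRCh38.p14, 250 bases before to 50 after the start) were at hand for MT2A and MT1X among the 5. They are printed because the family is controlled through short elements there. Capitals mark the core of the metal response element, searched as TGCACNC and TGCGCNC on both strands, and matches did not overlap each other.
MT2A, chr16:56608334-56608633, plus strand: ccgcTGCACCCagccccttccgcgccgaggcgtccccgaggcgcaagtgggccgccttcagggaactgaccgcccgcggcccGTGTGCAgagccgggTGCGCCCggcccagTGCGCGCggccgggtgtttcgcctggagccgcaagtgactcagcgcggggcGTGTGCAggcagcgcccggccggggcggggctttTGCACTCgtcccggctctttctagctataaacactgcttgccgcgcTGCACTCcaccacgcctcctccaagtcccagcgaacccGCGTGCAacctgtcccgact
MT1X, chr16:56682220-56682519, plus strand: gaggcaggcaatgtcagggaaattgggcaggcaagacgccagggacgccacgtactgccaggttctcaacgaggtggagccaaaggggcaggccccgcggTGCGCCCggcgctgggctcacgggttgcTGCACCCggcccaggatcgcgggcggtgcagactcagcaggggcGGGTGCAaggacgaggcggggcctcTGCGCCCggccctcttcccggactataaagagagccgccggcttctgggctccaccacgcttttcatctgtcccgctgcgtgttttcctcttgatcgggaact
The MT2A promoter held 8 matches, 6 of TGCACNC and 2 of TGCGCNC. The MT1X promoter held 4, 2 of each form. Of 35116 promoters of that length, 29.6% had at least 1 match, 0.601% at least 4 and 0.0199% at least 8. Both promoters also held the letters TATAAA, found in 7.33% of promoters. A match is a description of the letters and no evidence of binding.

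The libraries held 9608145 to 18803104 counts. Counts are reads per gene as deposited, and below they are given as CPM after TMM scaling, that is relative to the library's total with a correction for composition. NELFA was at 25.3 to 27.9 CPM in siControl and 22.2 to 33.8 in siYAP, against 7.11 to 9.96 in siNELFA and 6.35 to 8.2 in siNELFA+siYAP. YAP1 was at 247 to 302 CPM in siControl and 247 to 292 in siNELFA, against 37.7 to 46.2 in siYAP and 40.1 to 44.1 in siNELFA+siYAP. The basal markers VIM and CD44 had median levels of 1058 and 745 in TPM, a unit that corrects for transcript length. AXL, CAV1 and EGFR had medians of 354, 223 and 111. Among the luminal or epithelial markers, the hormone receptor genes ESR1 and PGR were at medians of 0.025 and 0.004. The others of that list were higher, with 20 for ERBB2, 8.57 for EPCAM, 2.375 for GATA3 and 0.506 for CDH1. The replicate 1 libraries of siControl, siNELFA and siYAP stood apart from the other libraries of their groups, with a biological coefficient of variation of 0.302 to 0.321 over the 3 libraries of each group, against 0.0576 in siNELFA+siYAP. In those 3 libraries CDH1, the epithelial cadherin, was at 16.3 to 47 CPM against 0 to 0.936 in the other 9. Of the 6 luminal or epithelial markers, 4 could be tested, and 3 were higher and 1 lower in replicate 1, with summed levels of 97.3 to 129 CPM in replicate 1, 64.2 to 95.7 in replicates 2 and 3 and 59.8 to 61.6 in siNELFA+siYAP. The 5 basal markers summed to 4300 to 4790 CPM in replicate 1 and to 4540 to 5980 in replicates 2 and 3. By the difference of replicate 1 from the other 2 numbers 4 of them were called lower and 1, CD44, higher. That difference, which also gave the luminal or epithelial counts, called 49.4% of 18193 genes. The part of these shifts in the metallothionein levels was not tested. Results are therefore given with and without these 3 libraries.

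MT2A was the most abundant member, and MT1G was hardly detected. Per length, in deposited TPM, a share of all transcripts in a library, MT2A had 212 in the lowest of the 12 libraries, a median of 945 and 1201 in the highest. MT1E had 82.1, 363 and 438 TPM, and MT1X had 122, 298 and 436. These 2 neighbours in the order overlapped over most of their range. MT1F was far lower, with 5.76, 10.4 and 16.9 TPM, and overlapped none of the 3 above it. MT1G had 0, 0.356 and 1.06 TPM. Its deposited TPM and counts did not match in every library, with 0.628 TPM in siControl replicate 2 where the count was 0. The order was the same with counts per kilobase of all annotated exons, but with counts per kilobase of the canonical transcript MT1X (median 196) stood above MT1E (median 146), so that the order of these 2 depends on the transcript assumed. Of the other annotated members and pseudogenes, only MT1A averaged 10 counts a library or more, with 2.12 to 6.73 CPM.

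MT1G had 2 reads in each of siControl replicate 3, siNELFA replicate 3 and siNELFA+siYAP replicate 2, and none in the other 9 libraries. If each count is an independent event, a count of 0 allows up to 3 counts, which is 0.16 to 0.312 CPM at these depths. No change of MT1G was therefore measurable, and it was removed by the filter on low counts. The other 4 members passed that filter in every comparison. For genes averaging 5 to 20 counts, 76.1% of values were even, against 51.2% for genes averaging 200 to 500, and all 12 MT1G values were even, so that a count of 2 may stand for 1 fragment. The bound on a count of 0 would then be higher than given.

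For MT2A and MT1E the widest differences ran between replicate numbers and not between siRNAs. In siControl, MT2A was at 71.7, 345 and 401 CPM in replicates 1, 2 and 3. In siNELFA it was at 123, 380 and 434, and in siYAP at 106, 353 and 366. Replicate 1 was thus the low library in each of these groups, by 3.08 to 5.6 times. In siNELFA+siYAP, MT2A was at 434, 474 and 439 CPM, with no low library. Fewer expressing cells and less RNA per cell cannot be told apart in such bulk samples.

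MT1E, a member with the same coding length, followed MT2A. In the control group it was at 42.2, 113 and 117 CPM, with siNELFA at 31, 111 and 118 and siYAP at 32.2, 113 and 94.5. In siNELFA+siYAP it was at 109, 109 and 105. The 3 replicate 1 libraries again lay below all others. The siNELFA+siYAP libraries fell within the range of replicates 2 and 3 of the other groups.

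MT1X showed a smaller gap. Its siControl libraries were at 31.4, 69.4 and 77.5 CPM, those of siNELFA at 51.2, 78 and 73.1, and those of siYAP at 46.9, 81.3 and 88. In siNELFA+siYAP it was at 101, 115 and 115. Replicate 1 was low in the first 3 groups, and all 3 siNELFA+siYAP libraries lay above the other 9.

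MT1F had no such gap. The siControl libraries had 4.01, 3.58 and 3.93 CPM, siNELFA had 3.14, 2.77 and 4.27, and siYAP had 2.69, 5.28 and 4.56. In siNELFA+siYAP it was at 5.8, 5.87 and 4.84. These values rest on 28 to 90 reads a library, and replicate 1 was the lowest library only in siYAP.

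**Figure D1:**
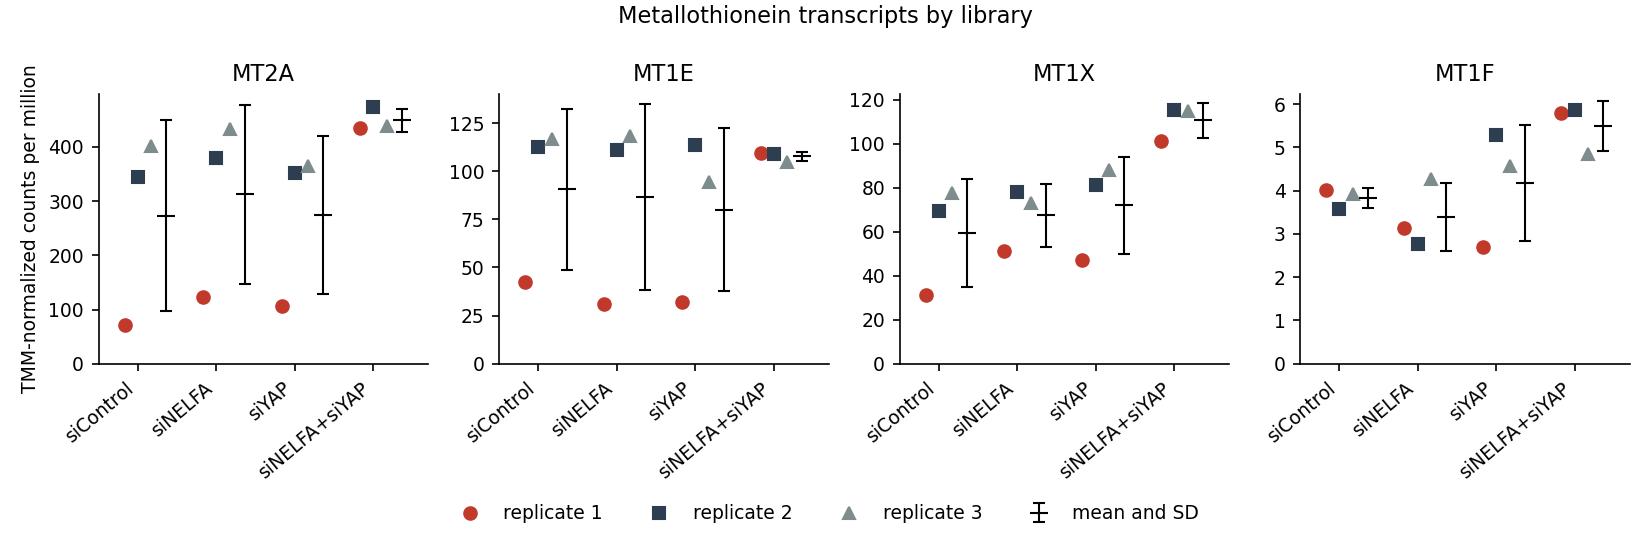
TMM-normalized CPM of MT2A, MT1E, MT1X and MT1F in each library by siRNA group, with symbols for replicates 1 to 3 and the group mean with its SD (n = 3) in black. Replicate 1 of siControl, siNELFA and siYAP lies at 71.7 to 123 for MT2A against 345 to 474 in the other 9 libraries, and no such gap is seen for MT1F.

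The difference between replicate numbers was tested over the 9 libraries of siControl, siNELFA and siYAP, with the group as a covariate. The edgeR quasi-likelihood F-test over replicate number called 3 of the 4 testable members at an adjusted p (Benjamini-Hochberg) under 0.05, all lower in replicate 1. Of 18193 genes 45.4% were called (52.4% at an unadjusted p under 0.05), and 22.4% were called and lower. MT2A was lower in replicate 1 than in the mean of replicates 2 and 3 by a log2 difference of -1.93 (SE 0.11, adjusted p = 7.01e-09). For MT1E the difference was -1.67 (SE 0.11, adjusted p = 4.06e-08) and for MT1X -0.86 (SE 0.12, adjusted p = 7.88e-05). For MT1F it was -0.29 (SE 0.26, adjusted p = 0.567). These adjusted p-values are from the F-test over all 3 replicate numbers and not from the replicate 1 difference alone, for which edgeR gave MT1F 0.384. DESeq2 called the same 3 members, among 8232 of 18193 genes. Between replicates 3 and 2 no member was called by edgeR or had an unadjusted p under 0.05, and 1.76% of genes were called.

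These 3 genes sat toward the low end of all genes by this difference. MT2A was the 314th lowest of 18193 genes, so 1.72% were lower, and for MT1E, MT1X and MT1F the shares were 2.69%, 11.7% and 33.9%. For MT1E, MT1X and MT2A each of the 3 replicate 1 libraries was below all 6 others, an arrangement found in 17.9% of genes. Their transcripts are short, and short transcripts were on the whole somewhat lower in replicate 1. The median difference over 13385 protein-coding genes was -0.02, and over the 264 with canonical transcripts under 600 bases it was -0.17. Of those 264, 8 were lower than MT2A and 51 were lower than MT1X. The part of transcript length in these differences was not tested.

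**Figure D2:**
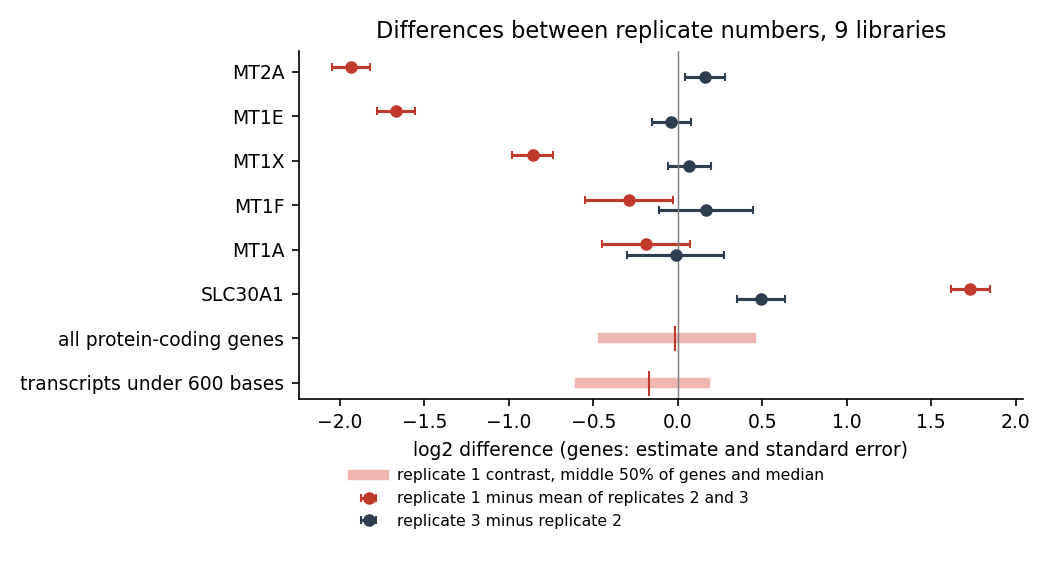
Log2 differences between replicate numbers in siControl, siNELFA and siYAP (estimate and standard error), for 5 metallothionein genes and the zinc exporter SLC30A1, with the middle 50% and median of all protein-coding genes and of those with transcripts under 600 bases. Replicate 1 lies at -1.93 for MT2A, -1.67 for MT1E and -0.86 for MT1X, and at 1.73 for SLC30A1, while replicates 3 and 2 differ by 0.49 at most among these genes.

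The make-up of the pool differed as well. The 5 genes together had 149 to 209 CPM in the 3 replicate 1 libraries, 531 to 630 in the 6 replicate 2 and 3 libraries, and 651 to 704 in siNELFA+siYAP. MT2A took 48 to 59.1% of this sum in replicate 1 and 63.8 to 68.9% in the other 9 libraries. MT1X took 21 to 25% in replicate 1, 11.6 to 15.9% in replicates 2 and 3 and 15.6 to 17.3% in siNELFA+siYAP. The ratio of MT2A to MT1X counts was 2.26 to 2.41 in replicate 1, 4.16 to 5.94 in replicates 2 and 3 and 3.82 to 4.28 in siNELFA+siYAP. Thus the share of MT1X did not overlap between replicate 1 and the other libraries. MT2A to MT1E gave no such split, with ratios of 1.7 to 3.98 in replicate 1 and 3.06 to 4.35 elsewhere.

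Across the 12 libraries MT2A tracked MT1E (Pearson r = 0.935 on log2 CPM) and MT1X (r = 0.929), and MT1F tracked the others less (r = 0.53 to 0.608). These values describe points that share the replicate 1 gap, so they carry no test. Among 12967 other genes averaging at least 50 counts, the 5 whose log2 CPM ran closest to the mean of the members over the 12 libraries were IMP3 (r = 0.99), PHGDH (r = 0.989), POP5 (r = 0.985), TRMT6 (r = 0.984) and FMNL3 (r = 0.984). PHGDH opens the serine synthesis pathway, and it was at 1.35 to 1.88 CPM in the 3 replicate 1 libraries and 6.66 to 10.7 in the other 9. None of these 5 belongs to the metal lists below.

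Genes that sense and move zinc went both ways between replicate numbers. SLC30A1, the zinc exporter of the plasma membrane and, like the metallothioneins, a known target of MTF1, was at 145, 30.8 and 37.8 CPM in siControl. The siNELFA libraries had 152, 39.2 and 56.1 CPM, the siYAP libraries 89.6, 27.8 and 43.2, and the siNELFA+siYAP libraries 58.5, 53.7 and 50.5. The 3 replicate 1 libraries were the highest, the reverse of MT2A and MT1E, and the log2 difference was 1.73 (SE 0.12, edgeR adjusted p = 2.76e-08). MTF1 itself was at 34.9 to 53.3 CPM in replicate 1 and 37.5 to 62.1 in replicates 2 and 3. Its call over replicate number (adjusted p = 0.00341) came with a difference of -0.21 (SE 0.12) for replicate 1 and 0.56 (SE 0.13) between replicates 3 and 2.

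Of 20 tested genes for zinc sensing and transport, 6 were called higher and 6 lower in replicate 1 by the F-test over replicate number, beside the 23% and 22.4% of all genes. The replicate 1 difference alone again gave 6 higher and 6 lower, but without MTF1, which the F-test counted as lower. The importers SLC39A11 and SLC39A10 were among the higher ones (log2 difference 1.15 and 1.02), and SLC39A8, which also carries manganese, and the vesicular transporter SLC30A6 were among the lower (-0.63 and -0.65). Of 15 genes for copper handling, the same F-test called 6 with a higher and 0 with a lower replicate 1, including the copper-exporting ATPase ATP7A (1.63) and the metalloreductases STEAP2 (1.35) and STEAP4 (4.30). By the replicate 1 difference alone, which called 49.4% of all genes, 6 copper genes were called higher and 2 lower, the latter SCO1 (-0.32) and SOD1 (-0.22), and SLC31A2, counted as higher by the F-test, was not called (0.24, adjusted p = 0.0938). STEAP4 was at 5 to 13.3 CPM in replicate 1 and under 1 elsewhere. By the F-test the other metallothioneins added MT1M, which was lower (-3.01, adjusted p = 0.0244) on 0 to 18 reads a library. MT1A was not called by the F-test (-0.19, adjusted p = 0.832).

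Of 11 tested glucocorticoid-responsive genes, the F-test called 7 higher in replicate 1 and 3 lower, beside 23% and 22.4% of all genes. TSC22D3, also called GILZ, was higher by 2.04 and the receptor gene NR3C1 by 0.67, while ANGPTL4, a secreted inhibitor of lipoprotein lipase, was lower by a log2 difference of -3.94. Of 14 genes of the metal and oxidative stress response, 3 were higher and 8 lower by the F-test. The replicate 1 difference alone gave the same counts, but without HSPA1B (-0.01, SE 0.09), which the F-test counted as lower. HMOX1, the inducible heme oxygenase, and the quinone reductase NQO1 were lower in replicate 1, by log2 differences of -1.18 and -1.11. GCLC, the catalytic subunit of the enzyme that opens glutathione synthesis, was higher by 1.13, and its regulatory partner GCLM was lower (-0.81). Whether any of these pathways has a part in the metallothionein levels was not tested.

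The first question of the design was what loss of NELFA or of YAP1 alone did. No member was called in siNELFA against siControl by edgeR on the 6 libraries of both groups, where 0.00564% of 17727 genes were called. None had an unadjusted p under 0.05, where 4.46% did. NELFA itself, the target, was not called by this edgeR fit (log2 fold change -1.63, SE 0.21, adjusted p = 0.381). DESeq2 gave no member at either threshold, while it called 27 of 17727 genes at the adjusted one. MT2A was at 312 CPM ± 166 in siNELFA and 273 ± 176 in siControl (SD, n = 3), a log2 fold change of 0.20 (SE 0.66). MT1E, MT1X and MT1F differed by -0.06 (SE 0.55), 0.18 (SE 0.34) and -0.17 (SE 0.31). The groups overlapped for every member, while 6.24% of genes were higher and 5.94% lower without overlap. Because replicate 1 was low for MT2A, MT1E and MT1X in both groups, a fit with the number as a block narrowed these errors. In it MT2A differed by 0.33 (SE 0.12, adjusted p = 0.138) and the other 3 members were not called, where 5.21% of genes were.

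In that blocked fit genes around the metallothioneins did move. Of the 20 zinc genes, 4 that carry zinc into the cytosol were called higher in siNELFA, where 2.76% of genes were: SLC39A14 (0.55), SLC39A9 (0.48), SLC39A7 (0.45) and SLC39A1 (0.40), and none lower. The ferritin genes FTL and FTH1, which encode the iron store, were higher by 0.81 and 0.73, with HSPA1B, and the cystine carrier gene SLC7A11 was lower by a log2 fold change of -0.73. In copper handling SLC31A2 was higher (1.02) and STEAP2 lower (-0.62), where 2.45% of genes were called lower, and of the glucocorticoid list NFKBIA, SGK1 and CEBPD were higher (0.39, 0.73 and 0.55). With all libraries and no block none of these genes was called. Without the replicate 1 libraries, and again with no block, FTL (0.83, adjusted p = 0.0107) and FTH1 (0.72, adjusted p = 0.0456) were the only ones called, where 0.0664% of genes were called higher.

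In siYAP against siControl, edgeR called no member, where 0.00578% of 17296 genes were called. None had an unadjusted p under 0.05, where 1.3% did. DESeq2 gave no member at either threshold, while it called 2 of 17296 genes at the adjusted one. MT2A was at 275 CPM ± 146 (SD, n = 3) and differed by a log2 fold change of 0.01 (SE 0.66). MT1X was at 72 ± 22, against 59.4 ± 24.6 in siControl, a log2 fold change of 0.28 (SE 0.37). MT1E and MT1F differed by -0.18 (SE 0.52) and 0.12 (SE 0.35). All 4 members overlapped between the groups, while 4.12% of genes were higher and 3.64% lower without overlap. With the block MT1X differed by 0.32 (SE 0.13, adjusted p = 0.544), 0.0173% of genes were called, and no gene of the 4 other lists was called in either fit.

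In siNELFA+siYAP the levels of MT2A and MT1X were the highest of the 4 groups. MT2A was at 449 CPM ± 21.4 and MT1X at 111 ± 7.91 (SD, n = 3). For both genes all 3 libraries lay above the other 9, as in 2.05% of 18525 genes. For MT2A this was a near tie, with 434.3 CPM in siNELFA+siYAP replicate 1 and 434.1 in siNELFA replicate 3. MT1E was at 108 ± 2.46 and MT1F at 5.5 ± 0.574. Against siControl alone, all 3 libraries were higher for MT1F, MT1X and MT2A, an arrangement found in 15.9% of genes.

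Against siControl the log2 fold changes were 0.88 for MT1X (SE 0.30, adjusted p = 0.195), 0.71 for MT2A (SE 0.53, adjusted p = 0.506), 0.51 for MT1F (SE 0.22, adjusted p = 0.273) and 0.24 for MT1E (SE 0.34, adjusted p = 0.742). So edgeR called no member, where 0.428% of genes were called. Only MT1X had an unadjusted p under 0.05, as 18.5% of genes did. DESeq2 gave the same member counts, while it called 1348 of 17533 genes at the adjusted threshold. Leaving out siControl replicate 1 changed the calls. The fold changes then became 0.59 for MT1X (SE 0.08, adjusted p = 8.44e-05), 0.26 for MT2A (SE 0.07, adjusted p = 0.00835), 0.54 for MT1F (adjusted p = 0.109) and -0.10 for MT1E (adjusted p = 0.322). In that fit 2 of 4 members were called higher, where 11.5% of genes were called higher. RP11-343H19.2, which shares the MT1X locus, rose by 0.62 (SE 0.09, adjusted p = 0.00012) in the same fit, and by 0.31 (adjusted p = 0.0268) and 0.48 (adjusted p = 0.0318) in the corresponding fits against siYAP and siNELFA.

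Against siYAP, which lacks the NELFA pool, MT2A differed by 0.71 (SE 0.40, adjusted p = 0.432) and MT1X by 0.61 (SE 0.22, adjusted p = 0.270). MT1E differed by 0.42 and MT1F by 0.38. edgeR called no member, where 0.035% of genes were called, and DESeq2 called none, where 770 of 17167 genes were. MT1X had an unadjusted p under 0.05 in edgeR (15.5% of genes) and DESeq2. Without siYAP replicate 1, MT1X was higher by 0.39 (SE 0.08, adjusted p = 0.00787) and MT2A by 0.32 (SE 0.06, adjusted p = 0.00444), where 7.96% of genes were called higher. The libraries did not overlap for MT1X and MT2A, as in 13.8% of genes.

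Against siNELFA, which lacks the YAP1 pool, MT1X differed by 0.71 (SE 0.17, adjusted p = 0.735) and MT1F by 0.69 (SE 0.26, adjusted p = 0.735). MT2A differed by 0.52 (SE 0.39) and MT1E by 0.31 (SE 0.42). edgeR called no member, where 0.00573% of genes were called, and DESeq2 called none, where 45 of 17463 genes were. MT1X and MT1F had an unadjusted p under 0.05 in edgeR (6.62% of genes) and DESeq2. Without siNELFA replicate 1, MT1X was higher by 0.55 (SE 0.08, adjusted p = 0.00956), and it was the only member called, where 0.481% of genes were called higher. MT2A then differed by 0.14 (SE 0.07, adjusted p = 0.414). MT1F, MT1X and MT2A did not overlap between the groups, as in 7.68% of genes, though for MT2A only by the near tie given above.

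MT1X was therefore the member called in all 3 comparisons once the low library was left out, at 1.31 to 1.5 times the other group, and MT2A was called in 2 of them at 1.2 and 1.25 times. These 3 comparisons share the siNELFA+siYAP libraries and are not independent. Over all genes those libraries also varied less than the others. Their library names all carry the number 1 with a further index of 1 to 3, and over 12971 genes their counts differed by 2.74 to 3.06 times the variance of read sampling (median over genes), against 6.84 to 9.57 times between replicates 2 and 3 of the other groups. The methods call the replicates of this experiment independent biological ones. Whether a shared culture or batch of the siNELFA+siYAP libraries has a part in their higher levels cannot be told apart from the knockdown.

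**Figure D3:**
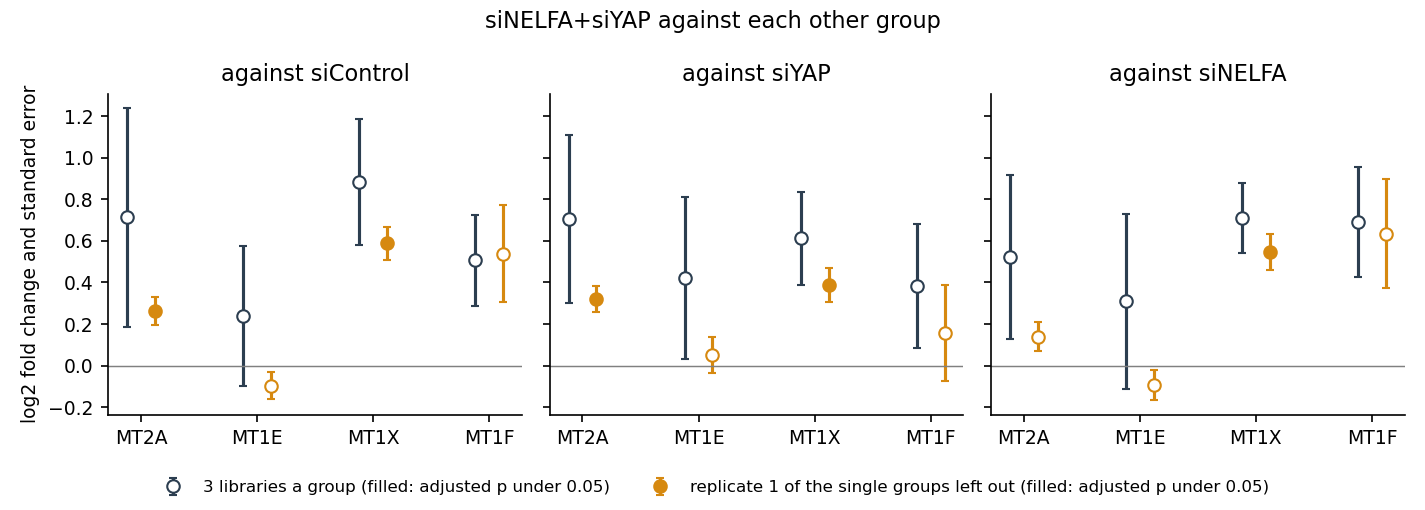
Log2 fold changes of MT2A, MT1E, MT1X and MT1F in siNELFA+siYAP against siControl, siYAP and siNELFA (estimate and standard error), with 3 libraries a group (dark) and without replicate 1 of the other group (orange), filled where the adjusted p is under 0.05. MT1X stays above 0 throughout, at 0.88 and 0.59 against siControl, while MT1E moves from 0.24 to -0.10.

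The double knockdown was also set against the sum of the 2 single knockdowns over all 12 libraries. The 4 members exceeded that sum by log2 values of 0.44 (MT1X, SE 0.45) to 0.56 (MT1F, SE 0.40), with 0.51 for MT2A (SE 0.87) and 0.49 for MT1E (SE 0.75). edgeR called no member and no other gene (0% of 18525, adjusted p of 1.00 for each member), no member had an unadjusted p under 0.05 (1.76% of genes had), and DESeq2 gave the same counts. Without the 3 replicate 1 libraries the excess was 0.18 for MT2A, 0.04 for MT1E, 0.33 for MT1X and 0.24 for MT1F, again with none called and MT1X at an unadjusted p of 0.03.

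Around the metallothioneins, ferritin genes were higher in siNELFA+siYAP than in siControl. Against siControl with all libraries, FTH1 rose by 0.90 (SE 0.13, adjusted p = 0.0431) and FTL by 0.64 (SE 0.08, adjusted p = 0.0423), the only genes called among the 5 lists. With the replicate block, in which the siNELFA+siYAP numbers are not paired, no gene of these lists was called. Without siControl replicate 1, 11 of 20 zinc genes were called higher and 0 lower, where 11.5% and 12.9% of genes were. SLC30A1 rose by 0.65 (SE 0.11), as did the importers SLC39A9 (0.56), SLC39A14 (0.52) and SLC39A7 (0.45) and the vesicular transporter SLC30A7 (0.53). Of 14 copper genes 5 were higher, among them ATP7A (1.06) and the importer SLC31A1 (0.51), and STEAP2 was lower (-0.59). Of 11 glucocorticoid-responsive genes 7 were higher and 0 lower, with KLF9 at 1.00 and TSC22D3 at 0.73. In the stress list FTH1, FTL, HMOX1 (0.36) and HSPA1B were higher, and SLC7A11 (-1.14) and HSPH1 were lower. Against siYAP without its replicate 1, 10 of 20 zinc genes were higher and 0 lower. Of 11 glucocorticoid-responsive genes 7 were higher and 1 lower, where 7.96% and 8.56% of genes were. Against siNELFA without its replicate 1, 0 zinc and 0 glucocorticoid-responsive genes were called, where 0.481% of genes were higher and 0.766% lower. There 2 of 15 copper genes and FTH1 (0.32) were higher and TXNRD1 (-0.39) was lower.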

How the data were processed

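Total RNA was depleted of ribosomal RNA and sequenced from stranded libraries. The authors trimmed the reads, aligned them to GRCh38 (Ensembl release 87) with STAR and deposited raw counts per gene from featureCounts. Its options are not given in the sources used here. The deposited TPM values were made by the authors per library and served for levels and as an alternative. FPKM values were not used. The members and gene lists were chosen with earlier results of these data known.

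Counts were tested by edgeR 4.0.16 (quasi-likelihood, TMM factors, filterByExpr with a minimum count of 10, a minimum total of 15 and a proportion of 70%) in R 4.3.3, on the libraries of the compared groups. Replicate number was tested over 9 libraries with the group as covariate. The sum test used all 12. p-values were adjusted by Benjamini-Hochberg over all genes tested, and the threshold was 0.05. The p-values measure the spread between the libraries given. As alternatives, DESeq2 1.42.0, limma 3.58.1 on log2(TPM + 1), RLE factors, looser and stricter filters on low counts, a replicate block and leaving out libraries were tried. Leaving out the replicate 1 libraries of siControl, siNELFA and siYAP together was chosen after seeing the data. The fits were tested on simulated data beforehand. In the simulated comparisons of groups no replicate 1 gap was shared and all groups had the same spread. That test therefore does not cover these features of the libraries. Figures were drawn with matplotlib 3.10.9.

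Same-numbered libraries of siControl, siNELFA and siYAP deviated together from their group means (r = 0.642 to 0.886 over 12971 genes), and those of siNELFA+siYAP did not (-0.0523 to 0.0256). The numbers are taken from the labels. Deviations from a group mean cancel out within the group, so a shared replicate 1 gap by itself moves replicates 2 and 3 together. These values therefore show a shared deviation of replicate 1 in the first 3 groups only. By themselves they cannot tell whether numbers 2 and 3 pair those groups, because differently numbered libraries were not compared. The edgeR test of replicate 3 against replicate 2 over those 3 groups called 1.76% of 18193 genes. Some genes thus shared a difference between these 2 numbers, and beyond that the replicate block rests on the labels.

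Named were the 5 members, NELFA and YAP1, other metallothionein genes averaging at least 10 counts, other list genes past the threshold, and the 5 genes whose levels ran closest to the members. The basal, luminal and epithelial markers named came from fixed lists, and RP11-343H19.2 was named after its values were seen. Coordinates and transcripts are from GENCODE 44, not from the annotation used for counting. Floors cover counting error only.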

Additional observations from a re-analysis of the deposited data

How the results depend on the processing

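Precision was limited by the replicate 1 libraries and, for MT1F and MT1G, by few reads. Of 103 alternative counts of called members, 97 stayed within 1.5 times the main count. The other 6 left out a replicate 1 library. The main count was 0 in every comparison except that of replicate number, so there staying meant 0 calls again. With the replicate 1 libraries of siControl, siNELFA and siYAP left out together, an alternative chosen after seeing the data, 2 members were called in siNELFA+siYAP against siControl, 2 against siYAP and 1 against siNELFA, where the main fits called 0. Leaving out 1 library at a time gave 0 to 2, 0 to 2 and 0 to 1 calls in these comparisons, and the higher number came from leaving out siControl, siYAP or siNELFA replicate 1, which for a comparison of siNELFA+siYAP with 1 group is the same fit as leaving out all 3, so these 6 counts are 3 fits. The calls by replicate number (3 members) held for MT1E, MT1X and MT2A in all 9 fits without 1 library, and MT2A then differed by -2.07 to -1.76.

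Directions of uncalled members turned. In siNELFA against siControl, MT1E was at 0.00757 (log2) without the replicate 1 libraries. In siYAP against siControl, limma on log2 TPM gave -0.0373 for MT1F and -0.0183 for MT2A, and MT2A was at -0.0528 without the replicate 1 libraries. MT1E in siNELFA+siYAP was at -0.0967 against siControl and -0.0942 against siNELFA without them. Leaving out 1 library at a time, the log2 fold changes in siNELFA against siControl ran from -0.396 to 0.344 for MT1E, -0.116 to 0.424 for MT1X and -0.25 to 0.591 for MT2A. In siYAP against siControl they ran from -0.517 to 0.197 for MT1E, -0.0805 to 0.356 for MT1F, -0.0224 to 0.508 for MT1X and -0.437 to 0.4 for MT2A. For MT1E in siNELFA+siYAP they ran from -0.0967 to 0.464 against siControl and from -0.0942 to 0.593 against siNELFA. The cause was not tested. With limma on log2 TPM the median of all genes shifted by -0.193 in siNELFA and -0.131 in siNELFA+siYAP against siControl and by 0.132 for the sum test.

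The replicate block changed no member's call (0 in every comparison between groups, MT2A in siNELFA against siControl at 0.33). With counts per kilobase of the canonical transcript, also chosen after seeing the data, MT1E ranked 3 in place of 2 by level.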
